A study of Mus musculus with 6 samples.

Results

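The 10 genes described here are imprinted genes of the network around *H19* and *Igf2*: the growth factor gene *Igf2*, the delta-like gene *Dlk1*, the receptor gene *Igf2r*, the adaptor gene *Grb10*, the zinc finger genes *Plagl1* and *Peg3*, the cell cycle inhibitor gene *Cdkn1c*, the hydrolase-like gene *Mest*, and the long noncoding RNA genes *H19* and *Meg3*. They were taken by name, 10 of 21999 genes in the count table, and the set was selected on its counts in these same 6 libraries, because some of the genes had been seen to vary strongly from one cell isolation to the next. That spread is therefore given below as a description, with no test.

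RNA was sequenced from 6 independent cultures of untreated mouse lung cells of the SV129/B6 strain, grown to confluence in endothelial medium and then taken with magnetic beads against CD31 (PECAM1) as lung microvascular endothelial cells. Of the isolations, 3 came from *Ptprz1*+/+ mice, which carry the intact gene of a receptor tyrosine phosphatase, and 3 came from *Ptprz1*-/- mice, which lack it, so n = 3 per genotype throughout. Each isolation pooled the lungs of 2-5 mice aged 3-8 weeks, so a library is a culture of several animals and not 1 animal. The comparison asked whether loss of the receptor alters the transcriptome of these cells.

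Imprinted genes are transcribed from the allele of 1 parent, under marks set in the germ line. In the mouse, *Igf2*, *Dlk1*, *Plagl1*, *Peg3* and *Mest* are expressed from the paternal allele, and *H19*, *Meg3*, *Cdkn1c* and *Igf2r* from the maternal allele. *Grb10* is expressed from the maternal allele in most tissues and from the paternal allele in neurons. Many of these genes are high in the fetus, act on growth, and fall in most organs after birth. The counts do not separate the parental alleles, so every level below is the sum of both.

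Of the 10 genes, 4 carry a microRNA hairpin on their own strand, against 473 of 13609 genes tested (3.48%). *H19* and *Meg3* hold theirs within an exon, *Igf2* and *Mest* within an intron. In the GENCODE M21 annotation *Meg3* also shares 80 exon bases with *Mir1906-1*, a microRNA gene on the same strand, for which no sequence is printed. The mature microRNAs of the 4 hairpins, from RefSeq on GRCm38.p6, are printed because they are made from the transcripts, or from introns of the genes, whose levels are followed here. Capitals mark the seed, bases 2 to 8, which is the part that pairs with targets.
mmu-miR-675-5p: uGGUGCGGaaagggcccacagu
mmu-miR-675-3p: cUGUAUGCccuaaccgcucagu
mmu-miR-483-5p: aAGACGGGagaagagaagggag
mmu-miR-483-3p: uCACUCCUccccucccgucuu
mmu-miR-770-5p: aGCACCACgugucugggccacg
mmu-miR-770-3p: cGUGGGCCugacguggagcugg
mmu-miR-335-5p: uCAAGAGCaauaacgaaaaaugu
mmu-miR-335-3p: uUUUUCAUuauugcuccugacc
No 2 of the 8 seeds are the same. miR-675 (chr7:142577078-142577133, minus strand) lies in *H19*, miR-483 (chr7:142654932-142654989, minus strand) in *Igf2*, miR-770 (chr12:109563710-109563765, plus strand) in *Meg3* and miR-335 (chr6:30741314-30741375, plus strand) in *Mest*. The microRNAs themselves were not measured, and a host's level is not a level of its microRNA.

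RefSeq start site windows of 300 bases, 250 before and 50 after the start, were found for 8 of the 10 genes, 15 windows in all. No window was matched for *H19* or *Cdkn1c*. Windows are printed for 3 paternally expressed genes that stood highest in the same pair of libraries (below), and for the neighbours *Dlk1* and *Meg3*. These neighbours stood at opposite extremes in labelled *Ptprz1*-/- libraries 1 and 2. Capitals mark CpG dinucleotides, at which DNA can be methylated, and each sequence reads from 5' to 3' on the gene's strand on GRCm38.p6. Whether any of these windows holds an imprinting mark was not examined.
Igf2, chr7:142658755-142659054, minus strand, 24 CpG: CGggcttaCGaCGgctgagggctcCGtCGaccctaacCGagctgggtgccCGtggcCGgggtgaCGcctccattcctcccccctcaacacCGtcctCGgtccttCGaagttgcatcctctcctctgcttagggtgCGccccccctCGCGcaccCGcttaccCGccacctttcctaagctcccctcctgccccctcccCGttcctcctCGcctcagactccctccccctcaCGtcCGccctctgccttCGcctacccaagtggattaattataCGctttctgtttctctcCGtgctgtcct
Mest, chr6:30737800-30738099, plus strand, 17 CpG: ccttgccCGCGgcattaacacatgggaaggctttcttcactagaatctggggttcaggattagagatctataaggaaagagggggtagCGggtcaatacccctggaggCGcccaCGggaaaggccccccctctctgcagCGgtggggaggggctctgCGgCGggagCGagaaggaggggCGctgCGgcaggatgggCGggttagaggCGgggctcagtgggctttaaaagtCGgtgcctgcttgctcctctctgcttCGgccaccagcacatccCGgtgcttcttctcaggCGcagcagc
Plagl1, chr10:13090582-13090881, plus strand, 26 CpG: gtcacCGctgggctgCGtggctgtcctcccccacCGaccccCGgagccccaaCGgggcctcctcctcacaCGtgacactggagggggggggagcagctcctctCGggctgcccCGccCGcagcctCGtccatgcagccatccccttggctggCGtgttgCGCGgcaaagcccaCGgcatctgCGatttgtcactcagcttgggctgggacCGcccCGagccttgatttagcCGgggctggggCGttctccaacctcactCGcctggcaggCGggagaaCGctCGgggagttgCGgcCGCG
Dlk1, chr12:109452573-109452872, plus strand, 9 CpG: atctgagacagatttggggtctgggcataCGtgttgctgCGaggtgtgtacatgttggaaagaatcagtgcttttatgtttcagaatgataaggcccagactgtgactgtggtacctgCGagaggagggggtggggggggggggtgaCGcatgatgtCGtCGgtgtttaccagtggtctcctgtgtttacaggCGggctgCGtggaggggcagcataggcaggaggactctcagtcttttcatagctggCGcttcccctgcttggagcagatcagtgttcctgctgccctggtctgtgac
Meg3, chr12:109540746-109541045, plus strand, 13 CpG: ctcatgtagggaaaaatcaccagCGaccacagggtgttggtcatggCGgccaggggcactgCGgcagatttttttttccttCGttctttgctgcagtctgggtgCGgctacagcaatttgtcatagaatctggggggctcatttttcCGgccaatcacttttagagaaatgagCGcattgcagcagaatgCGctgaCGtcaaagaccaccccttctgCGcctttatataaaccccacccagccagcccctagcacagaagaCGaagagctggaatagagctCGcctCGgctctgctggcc
The 3 windows of *Igf2*, *Mest* and *Plagl1* hold 24, 17 and 26 CpG and those of *Dlk1* and *Meg3* hold 9 and 13, against a median of 7 over 32851 windows. For genes with several windows the one printed holds the most CpG of its gene, and the others hold 2, 7 and 14 CpG at *Igf2*, 8 and 17 at *Mest* and 1 at *Meg3*, so no contrast with the median is drawn. Over all 15 windows the CpG count ran from 1 to 45, with the highest count at *Grb10*. The letters GGGGCCCC, a recognition sequence known for the PLAGL1 protein and the same on both strands, were in 1 of the 15 windows, that of *Peg3*, and in 354 of all 32851 (1.08%). Methylation was not measured.

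The deposited total was 16392715-17709663 reads per *Ptprz1*+/+ library and 14496881-15601584 per labelled *Ptprz1*-/- library. Levels are given as CPM, read counts scaled to a fixed total per library with TMM factors. *Ptprz1* itself was at 11.9, 101 and 32.1 CPM in *Ptprz1*+/+ libraries 1, 2 and 3 and at 70.6, 90.6 and 59.1 CPM in the libraries labelled *Ptprz1*-/-. The gene's count therefore does not separate the genotypes, the exons the allele lacks are not given in the sources used here, and every direction below rests on the labels. The endothelial marker *Pecam1* was at 3.81, 4.40 and 91.0 CPM and at 1.36, 1.51 and 32.4 CPM in the same order, and *Cdh5* at 8.70, 14.4, 199 and 3.60, 7.41, 61.3 CPM. The 12 endothelial markers together summed to 17.2-36.9 CPM in the 4 libraries numbered 1 and 2, 569 CPM in *Ptprz1*+/+ library 3 and 186 CPM in labelled *Ptprz1*-/- library 3. The 10 fibroblast markers, led by *Col3a1* at 4121-13910 CPM and with *Col1a1* at 2494-5992 CPM, summed to 10420-26380 CPM, so the labelled endothelial identity was carried by low marker levels beside high fibroblast levels. In bulk RNA, fewer cells of a type and less RNA per cell cannot be told apart.

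*Igf2* and *H19* were among the genes that varied most between isolations, and they were highest in the same library. *Igf2* (GRCm38, as for all positions here, chr7:142650766-142666816, minus strand) encodes insulin-like growth factor 2, a fetal growth factor. Its level was 6.83, 2.86 and 36.2 CPM in *Ptprz1*+/+ libraries 1, 2 and 3 and 5.64, 10.2 and 118 CPM in labelled *Ptprz1*-/- libraries 1, 2 and 3, from 113, 52, 573, 91, 149 and 1783 reads. The highest library was 41.2 times the lowest, and in each genotype library 3 stood above the other 2. The SD over the 6 libraries of log2(CPM + 0.5), called the spread here, was 1.90 for *Igf2*, at percentile 99.6 of 13609 genes.

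*H19* (chr7:142575529-142578143, minus strand) lies 72.6 kb from *Igf2* and makes a noncoding RNA. The 2 genes share enhancers, and in the fetus the same tissues express both, from opposite parental alleles. *H19* was at 40.2, 54.2 and 180 CPM in *Ptprz1*+/+ libraries 1 to 3 and at 24.4, 40.6 and 670 CPM in those labelled *Ptprz1*-/-, from 665, 986, 2846, 393, 591 and 10139 reads. Again library 3 of each genotype was the high one, and labelled *Ptprz1*-/- library 3 was 27.5 times the lowest library. The spread was 1.78, at percentile 99.4, and 1.07, at percentile 94.8, without labelled *Ptprz1*-/- library 3.

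**Figure D1:**
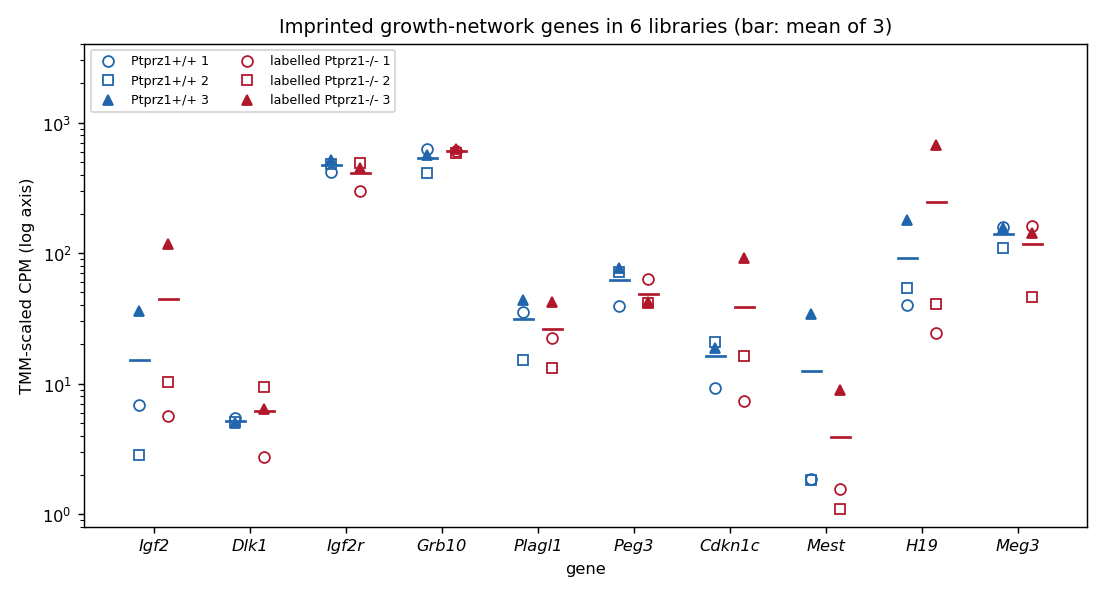
Level of each of the 10 genes in each library, as TMM-scaled CPM on a log axis. Points are libraries (blue, Ptprz1+/+; red, labelled Ptprz1-/-; filled triangles, libraries numbered 3) and bars are means of 3. Igf2, H19 and Mest have both triangles far above their other 4 points, Cdkn1c has 1 high point at 92.2 CPM, and Grb10 and Igf2r stay within a factor of 1.72.

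Per base of gene length, *H19* exceeded *Igf2* in every library. The ratio was 12.2 (95% exact binomial interval, 9.95-14.97), 39.2 (29.6-52.8) and 10.3 (9.38-11.2) in the *Ptprz1*+/+ libraries, and 8.92 (7.09-11.3), 8.19 (6.84-9.87) and 11.8 (11.2-12.4) in those labelled *Ptprz1*-/-. These intervals cover counting error only. Leaving out *Ptprz1*+/+ library 2, the ratio varied 1.48-fold between libraries while *H19* itself varied 27.5-fold and *Igf2* 20.9-fold. *Ptprz1*+/+ library 2 stood apart, with *Igf2* at its lowest, 52 reads, and *H19* above its level in 3 of the other libraries. That library also had the highest summed level of 10 proliferation markers, 886 CPM against 69.9-207 CPM in the other 5, with *Mki67* at 236 CPM, and whether this bears on the ratio was not tested.

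**Figure D2:**
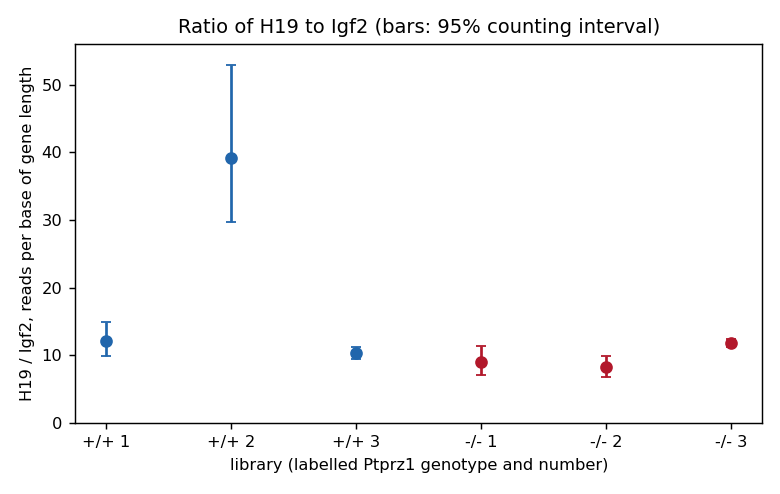
Ratio of H19 to Igf2 in reads per base of gene length for each library (blue, Ptprz1+/+; red, labelled Ptprz1-/-), with 95% exact binomial intervals as bars. Ptprz1+/+ library 2 lies at 39.2 and the other libraries between 8.19 and 12.2.

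*Cdkn1c* (chr7:143458350-143461050, minus strand), in the neighbouring imprinted domain 880.2 kb from *H19*, encodes p57, an inhibitor of cyclin-dependent kinases that holds cells out of division. It was at 9.24, 20.7 and 18.7 CPM in *Ptprz1*+/+ libraries 1 to 3 and at 7.38, 16.3 and 92.2 CPM in the others. Here only labelled *Ptprz1*-/- library 3 was high, at 4.46 times the next library, and *Ptprz1*+/+ library 3 lay below *Ptprz1*+/+ library 2. The spread was 1.25, at percentile 97.2, and without labelled *Ptprz1*-/- library 3 it was 0.630, at percentile 84.3. *Kcnq1ot1*, the noncoding RNA of the same domain, which is made from the paternal allele and represses *Cdkn1c* in cis, was also highest in that library, at 14.3 CPM, against 5.21-9.59 CPM in the other 5. Of the other listed genes of the domain, *Slc22a18* was highest in both libraries numbered 3, at 3.72 and 4.43 CPM against at most 2.75 CPM. *Kcnq1*, too low to be tested, had 29 and 17 reads there and 0-3 reads in each of the other 4. *Cd81* was also highest there by CPM, at 573 and 455 CPM, but labelled *Ptprz1*-/- library 1 was close at 452 CPM. That library had 7289 reads of *Cd81*, against 6893 in labelled *Ptprz1*-/- library 3. Of all genes tested, 10% were highest in both libraries numbered 3. *Tssc4*, *Osbpl5* and *Nap1l4* did not follow this order, with *Tssc4* at 33.9 CPM in labelled *Ptprz1*-/- library 3 and 45.9 CPM in labelled *Ptprz1*-/- library 1. *Phlda2* and *Ascl2* were too low to be tested.

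*Mest* (chr6:30723547-30748455, plus strand), a paternally expressed gene of the hydrolase fold family found in fetal mesoderm, had a different order of the 2 high libraries. It was at 1.87, 1.81 and 33.9 CPM in *Ptprz1*+/+ libraries 1 to 3 and at 1.55, 1.10 and 8.98 CPM in the others, from 31, 33, 538, 25, 16 and 136 reads. *Ptprz1*+/+ library 3 was the highest, 30.9 times the lowest library, whereas *H19*, *Igf2* and *Cdkn1c* had 3.73, 3.26 and 4.94 times the level of *Ptprz1*+/+ library 3 in labelled *Ptprz1*-/- library 3. The same ratio was 0.265 for *Mest*. For the summed markers it was 0.289 (leukocyte), 0.326 (endothelial), 0.815 (smooth muscle and pericyte), 1.07 (fibroblast), 1.23 (epithelial), 1.35 (proliferation) and 3.06 (mesothelial). The spread of *Mest* was 1.73, at percentile 99.4, and 1.01, at percentile 94.4, without *Ptprz1*+/+ library 3.

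In part of the set and in the endothelial markers, the libraries numbered 3 stood apart from the other 4. *H19*, *Igf2*, *Plagl1* and *Mest*, 4 of the 10 genes, were higher in both of them than in any of the other 4 libraries. The same held for 1366 of 13609 genes tested (10%) and 10 of the 12 endothelial markers. Of all genes tested, 13.0% were highest in *Ptprz1*+/+ library 3 and 11.7% in labelled *Ptprz1*-/- library 3, against 26.9% in *Ptprz1*+/+ library 2. The summed fibroblast markers were also highest in these 2 libraries, at 24630 and 26380 CPM against at most 17830 CPM, but 4 of the 10 markers followed this order one by one and 6, *Col1a1* among them, did not. Mesothelial markers did not follow this order, with 1383 CPM in labelled *Ptprz1*-/- library 1, where *Msln* was at 204 CPM, and 56.3-280 CPM elsewhere. The smooth muscle and pericyte markers ran from 872 to 4623 CPM and were not highest in these libraries. The 8 leukocyte markers found in the table summed to 10.6-55.96 CPM and the 9 epithelial ones to 1.80-3.57 CPM. Whether the amount of any of these cell types sets the level of the imprinted genes was not tested.

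**Figure D3:**
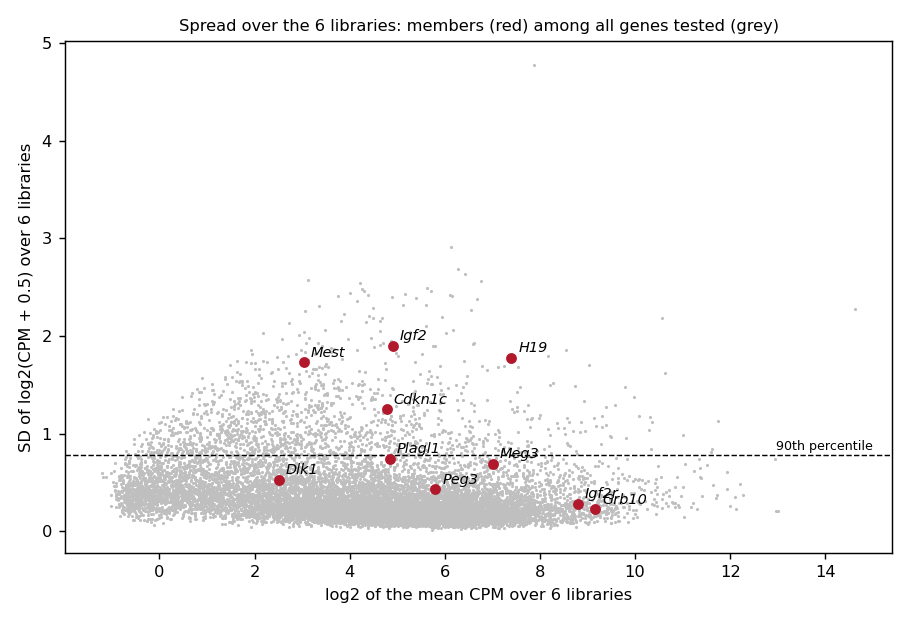
Spread, the SD of log2(CPM + 0.5) over the 6 libraries, against the log2 of the mean CPM for the 13609 genes tested (grey) and the 10 imprinted genes (red). Above the dashed line at the 90th percentile lie H19, Igf2, Mest and Cdkn1c, and the other 6 genes lie below it.

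By spread, 4 of the 10 genes were among the 10% of all genes tested with the widest spread, called the widest 10% here, namely *Igf2*, *H19*, *Mest* and *Cdkn1c*. The other 6 were not, so the description of strong variation holds for part of the set. The median spread of the 10 genes was 0.718, against 0.275 over all genes tested. Leaving out both libraries numbered 3 put 1 gene, *Meg3*, in the widest 10% and none of these 4, and lowered the spread of *Mest* from 1.73 to 0.261 and that of *H19* from 1.78 to 0.472.

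*Plagl1* (chr10:13090691-13131694, plus strand) encodes a zinc finger transcription factor that is known to bind and activate several imprinted genes. Its level was 35.1, 15.2 and 44.0 CPM in the *Ptprz1*+/+ libraries and 22.5, 13.2 and 42.5 CPM in those labelled *Ptprz1*-/-. Both libraries numbered 3 were highest, and in each genotype library 2 was lowest, with 3.34 times between the extremes. Unlike *Igf2*, *Plagl1* differed little between the 2 high libraries. Its spread of 0.743, at percentile 88.9, lay just outside the widest 10%.

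*Peg3* (chr7:6703892-6730421, minus strand), also a zinc finger gene, lies at the other end of chromosome 7. It was at 39.5, 71.1 and 76.6 CPM in *Ptprz1*+/+ libraries 1 to 3 and at 63.3, 41.3 and 42.5 CPM in the others. The groups overlapped, and the highest library was 1.94 times the lowest. The libraries numbered 3 were not set apart.

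*Dlk1* and *Meg3* share an imprinted domain on chromosome 12, where *Dlk1* (chr12:109452823-109463336, plus strand) is expressed from the paternal and *Meg3* (chr12:109541001-109571726, plus strand) from the maternal allele, 77.7 kb apart. *Dlk1* encodes a membrane-bound ligand-like protein of the Notch family that keeps precursor cells undifferentiated. It was at 5.50, 5.06 and 4.98 CPM in *Ptprz1*+/+ libraries 1 to 3 and at 2.73, 9.47 and 6.41 CPM in those labelled *Ptprz1*-/-, from 44 to 138 reads. The 3 *Ptprz1*+/+ libraries were within a factor of 1.10 of each other, and the lowest and the highest library were both labelled *Ptprz1*-/-.

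*Meg3* was at 159, 109 and 156 CPM in *Ptprz1*+/+ libraries 1 to 3 and at 161, 46.5 and 142 CPM in the others. The highest was labelled *Ptprz1*-/- library 1, where *Dlk1* was lowest, at 1.01 times the next library. Labelled *Ptprz1*-/- library 2 alone was low. Without it the spread of *Meg3* was 0.236, at percentile 42.7, against 0.694, at percentile 87.5, with it. The maternally expressed noncoding RNAs of the domain, which were chosen after their values were seen, were lowest in the same library. *Rian* was at 29.7 CPM there against 44.3-102 CPM in the other 5, and *Mirg* at 1.37 CPM against 1.98-4.35 CPM. The paternally expressed genes *Dlk1* and *Dio3* were highest there, *Dio3* at 6.31 CPM against 1.26-3.87 CPM. *Rtl1*, also paternally expressed, went the other way and was lowest there, at 0.343 CPM against 0.528-1.48 CPM, from 5 reads against 8-27. Whether reads of its maternal antisense transcript enter this count was not tested. Of all genes tested, 16.5% were lowest and 15.7% highest in this library. Across the 6 libraries Pearson's r of log2 levels between *Dlk1* and *Meg3* was -0.74, a description over points that share their library totals.

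**Figure D4:**
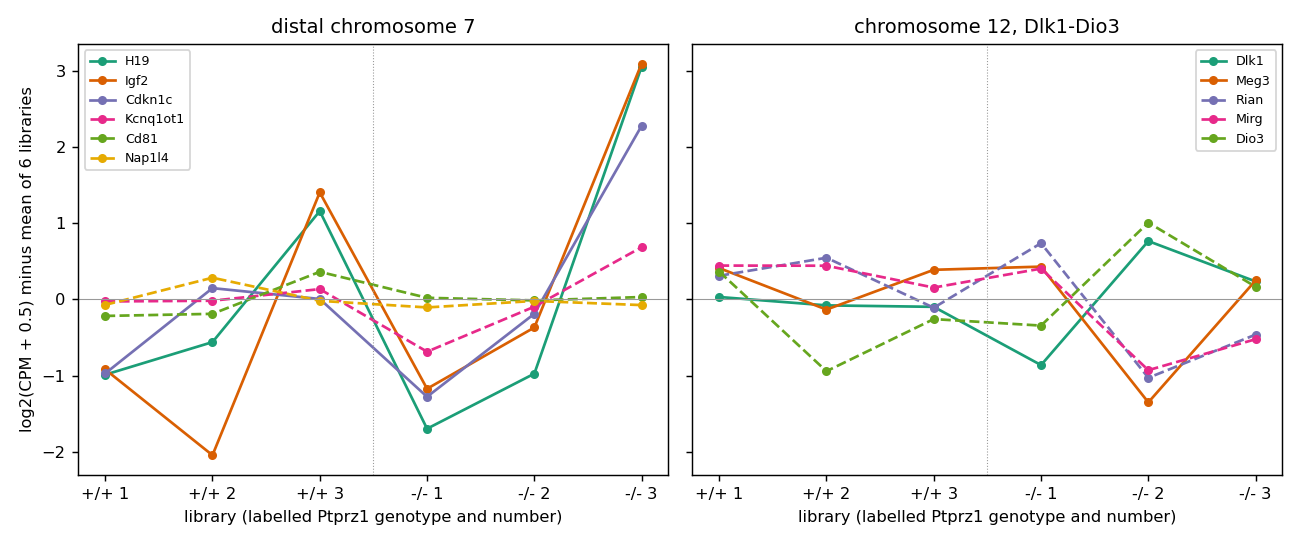
Level of genes of the distal chromosome 7 domains (left) and the Dlk1-Dio3 domain (right) in each library, as log2(CPM + 0.5) minus the gene's mean over 6 libraries. Solid lines are the genes described here and dashed lines their neighbours. H19 and Igf2 rise in both libraries numbered 3 and Cdkn1c in one of them, while the neighbours Cd81 and Nap1l4, picked after their values were seen, stay near 0 and Slc22a18, not drawn, does not; in labelled Ptprz1-/- library 2 Meg3, Rian and Mirg are low while Dlk1 and Dio3 are high.

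Over all 6 libraries, the 2 genes that restrain growth signalling at the membrane had the smallest spreads of the set, although *Meg3* was below both without labelled *Ptprz1*-/- library 2, and *Mest* without both libraries numbered 3. *Igf2r* (chr17:12682406-12769664, minus strand) encodes the receptor that binds IGF2 and delivers it for degradation. Its level was 420, 483 and 518 CPM in the *Ptprz1*+/+ libraries and 301, 490 and 446 CPM in the others. Only labelled *Ptprz1*-/- library 1 stood low, and the spread was 0.283, at percentile 51.6, and 0.120, at percentile 11.8, without that library.

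*Grb10* (chr11:11930508-12038683, minus strand) encodes an adaptor that binds the insulin and IGF1 receptors and dampens their signal. It was at 632, 413 and 561 CPM in *Ptprz1*+/+ libraries 1 to 3 and at 605, 582 and 623 CPM in the others. Without *Ptprz1*+/+ library 2, the lowest, its spread fell from 0.229 to 0.0704, at percentile 3.73 of all genes tested.

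Apart from the ratio of *H19* to *Igf2* per base, levels of the 10 genes were compared with each other as FPKM, which divides by gene length. *Grb10* was highest by median at 116 FPKM, with a range of 83.8-129, and *Igf2r* followed at 52.2 FPKM, with a range of 35.0-56.4. These 2 ranges did not overlap. *H19* came next at 20.8 FPKM but ran from 11.02 to 306, so that in labelled *Ptprz1*-/- library 3 it stood above *Grb10*. *Meg3*, *Cdkn1c*, *Peg3* and *Plagl1* followed at 10.3, 8.65, 6.31 and 5.48 FPKM. *Igf2*, *Dlk1* and *Mest* were lowest at 1.73, 1.14 and 0.724 FPKM. Each gene from *Igf2r* down overlapped the next one in this order, so apart from the first step the order of neighbours lay within the spread between libraries.

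None of the 10 genes passed the test between genotypes, by the quasi-likelihood test of edgeR adjusted by Benjamini-Hochberg across the 13609 genes that entered it, of which 0 were called (0%). At an unadjusted p under 0.05 the count was 0 of 10 genes against 366 of all genes (2.69%), and 0 of 10 had groups that did not overlap, against 991 of all (7.28%). DESeq2 called 31 of 16398 genes (0.189%) and none of the 10, and it withheld the p of *H19*, *Igf2* and *Mest* on Cook's distance, its measure of how far 1 library sets a fit. The directions split evenly, 5 positive and 5 negative, with a median log2 fold change of -0.01 against -0.0047 over all genes tested.

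The largest fitted differences were those of the genes with the widest spread. For *Igf2* the mean was 15.3 ± 18.2 CPM (SD, n = 3) in *Ptprz1*+/+ and 44.6 ± 63.5 CPM in labelled *Ptprz1*-/- libraries, a log2 fold change of 1.55 ± 1.37 (SE) with an edgeR adjusted p of 1. For *H19* the means were 91.3 ± 76.8 and 245 ± 368 CPM, and the log2 fold change was 1.42 ± 1.30. *Cdkn1c* was at 16.2 ± 6.10 and 38.6 ± 46.6 CPM, a log2 fold change of 1.25 ± 0.91. The signs of all 3 turned negative when labelled *Ptprz1*-/- library 3 was left out, to -0.96, -1.50 and -0.46. *Mest* was at 12.5 ± 18.5 and 3.88 ± 4.43 CPM, a log2 fold change of -1.69 ± 1.38, which became 1.07 without *Ptprz1*+/+ library 3.

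The steadier genes bounded the genotype difference more closely. The 95% interval of the log2 fold change was -0.31 to 0.65 for *Grb10* and -0.73 to 0.33 for *Igf2r*. It was -1.06 to 0.37 for *Peg3* and -0.81 to 1.32 for *Dlk1*, and wider for *Meg3*, -1.36 to 0.80, and *Plagl1*, -1.54 to 1.00. For *Dlk1*, *Meg3* and *Plagl1* the sign turned when labelled *Ptprz1*-/- library 2 was left out, to -0.18, 0.10 and 0.05. *Igf2r*, *Peg3* and *Grb10* kept their sign in every alternative run.

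**Figure D5:**
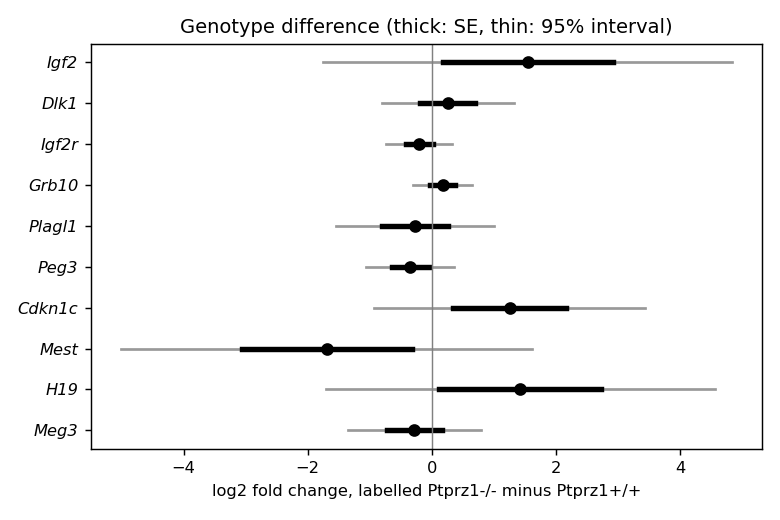
Log2 fold change of each gene, labelled Ptprz1-/- minus Ptprz1+/+, from the edgeR fit of all 6 libraries; thick bars are standard errors and thin bars 95% intervals. All 10 intervals include 0, and those of Igf2, H19 and Mest are the widest.

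Apart from the pair *H19* and *Igf2*, the tested genes nearest to *H19* and *Mest* had smaller spreads. Within 250 kb of *H19*, 6 tested genes other than *Igf2* had spreads of 0.244-0.698. The 3 tested neighbours of *Mest* had spreads of 0.186-0.265, among them *Copg2*, which overlaps the end of *Mest* on the opposite strand over 912 exon bases and was at 30.1-44.4 CPM in all libraries. All 3 tested neighbours of the steady *Grb10*, *Cobl*, *Ddc* and *Fignl1*, were in the widest 10%. *Igf2* shares 98 exon bases with the antisense gene *Igf2os* and 3596 with *Gm49394*, an annotated readthrough on the same strand, *Meg3* shares 1228 with the opposite-strand gene *Gm26906*, and *Cdkn1c* 625 with *Gm44732*. Use of strand in counting is not given in the sources used here, so reads in these stretches cannot be assigned with certainty.

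The genes most like the 3 widest members were found by Pearson's r of log2(CPM + 0.5) over the 6 libraries, among 12935 genes with a mean of at least 1 CPM, and the points share their 6 libraries. With *Igf2* these were *Pcdhb17* (r = 0.996), *Mysm1* (0.994) and *Ssh2* (0.987), with *H19* they were *St6galnac2* (0.997), *Nt5m* (0.989) and *Negr1* (0.987), and with *Mest* they were *Notch3* (0.995), *Erg* (0.990) and *Spns2* (0.989). Over 0.95 lay 40, 36 and 59 of the 12935 genes for *Igf2*, *H19* and *Mest*. With 6 points and so many genes searched, high values of r can arise from the search alone. The names and counts are therefore a description only. Likeness of shape did not mean likeness of size. *Mysm1* ran from 31.9 to 42.7 CPM and *Nt5m* from 9.68 to 11.8 CPM, whereas *Erg*, an endothelial transcription factor, ran from 0.137 to 15.5 CPM with its highest value in *Ptprz1*+/+ library 3, as for *Mest*.

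Other imprinted genes, some of which are imprinted only in placenta or brain, were compared as a list of 52. Of these, 47 were in the table and 36 were tested. Their median spread was 0.384 and 7 of 36 (19.4%) were in the widest 10%, 2 of 16 listed for the paternal and 5 of 20 for the maternal allele. None of the 36 had an unadjusted p under 0.05, against 2.69% of all genes tested, and 3 (8.33%) had groups that did not overlap, against 7.28%. The widest of the paternal list were *Peg10*, a retrotransposon-derived gene, at 16.8-96.6 CPM, *Slc38a4*, an amino acid transporter gene, at 0.661-4.23 CPM, and *Airn*, the noncoding RNA that silences paternal *Igf2r*, at 1.51-5.75 CPM. *Airn* was highest in labelled *Ptprz1*-/- library 3 and next highest in *Ptprz1*+/+ library 2, where *Igf2r* was at 446 and 483 CPM. The widest of the maternal list were *Ddc*, at 0.198-5.40 CPM, which was listed there although its imprinted transcript in heart is known to be paternal, *Asb4*, at 0.121-3.09 CPM, and *Slc22a18*, next to *Cdkn1c*, at 0.385-4.43 CPM. The lowest unadjusted p-values of edgeR in these lists were 0.0597 for *Slc38a4*, 0.0904 for *Rtl1* and 0.22 for *Mcts2*, and 0.0512 for *Tfpi2*, 0.0554 for *Gnas* and 0.142 for *Asb4*, all with an adjusted p of 1.

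Of 17 genes of IGF signalling, 16 were in the table and tested, with a median spread of 0.635 and 6 (37.5%) in the widest 10%. The widest were 2 secreted binding proteins and the other ligand of the pathway. *Igfbp5*, a binding protein that holds IGF near the matrix, ran from 31.9 to 942 CPM. It was highest in *Ptprz1*+/+ library 2, where *Igf2* was lowest, and next highest, at 466 CPM, in labelled *Ptprz1*-/- library 3, where *Igf2* was highest. Of all genes tested, 26.9% were highest in *Ptprz1*+/+ library 2. *Igfbp3*, the main carrier of IGF in serum, ran from 119 to 617 CPM, and the ligand gene *Igf1* from 19.7 to 111 CPM, with its highest value again in *Ptprz1*+/+ library 2. None of the 16 was called between genotypes. An unadjusted edgeR p under 0.05 was found for 2 of them (12.5%), against 2.69% of all genes tested. The groups did not overlap for 3 (18.8%), against 7.28%. The lowest unadjusted p-values of edgeR were 0.0369 for *Pappa*, a protease that frees IGF from binding proteins (log2 fold change 0.65 ± 0.25, SE), 0.0483 for *Igf2bp2*, an RNA-binding protein (-0.32 ± 0.13), and 0.0517 for *Igfbp6*, which prefers IGF2 (0.94 ± 0.40). All 3 had an adjusted p of 1.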

How the data were processed

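The authors deposited 1 table of 21999 genes with counts of reads per gene and library, not normalized, and FPKM values computed from the same counts. The deposited FPKM was recomputed here from the counts and gene lengths and differed by at most 4.4e-08. The submitters' processing notes name STAR, TopHat, HTSeq, DESeq2 and edgeR with GRCm38/mm10, without roles. Annotation release and use of strand are not given in the sources used here. The deposited fold changes, p-values, group means and lists of called genes were not used. GENCODE M21 held 98.9% of the identifiers, 99.899% of them at an overlapping GRCm38 position.

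Genotypes came from the sample labels. Counts were filtered (filterByExpr), scaled (TMM) and fitted by quasi-likelihood (glmQLFit, glmQLFTest; genotype only) in edgeR 4.0.16 under R 4.3.3, adjusted over 13609 genes by Benjamini-Hochberg, threshold 0.05. DESeq2 1.42.0 was an alternative. The fit was also run on simulated counts with known changes, drawn with the variation typical of genes at each level. That run checks the code and does not cover genes as variable as *H19*, *Igf2* and *Mest*. The p-values set the genotype difference against the spread between isolations of the same genotype. Single values of 3 against 3 libraries cannot reach a permutation p below 0.1, so none is given.

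Members and lists were chosen with earlier results of these data known. Named were all members, the 3 genes of each further list with the lowest unadjusted p and the 3 with the widest spread, selected markers, and the 3 genes most like each of the 3 widest members. *Rian*, *Mirg*, *Dio3*, *Kcnq1ot1*, *Kcnq1*, *Cd81*, *Nap1l4*, *Tssc4*, *Osbpl5*, *Phlda2*, *Ascl2*, *Col3a1* and the neighbours named were chosen after their values were seen.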

Additional observations from a re-analysis of the deposited data

How the results depend on the processing

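No alternative made any of the 10 genes pass the genotype test, with no p from DESeq2 for *H19*, *Igf2* and *Mest*, and *Igf2r*, *Peg3* and *Grb10* kept their direction throughout. Without *Ptprz1*+/+ library 1, *Peg3* had an unadjusted edgeR p of 0.0435 and an adjusted p of 0.803. The number of genes called stayed at 0 except with DESeq2, which called 31. Without both libraries numbered 3, the log2 fold change of *H19* became -0.54 and that of *Cdkn1c* -0.34, and 1 gene, *Meg3*, was in the widest 10%. The cause was not tested. Leaving out 1 library at a time gave ranges of -1.50 to 2.38 for *H19*, -0.96 to 3.20 for *Igf2*, -0.18 to 0.62 for *Dlk1*, -0.58 to 0.10 for *Meg3*, -0.82 to 0.054 for *Plagl1*, -0.46 to 1.75 for *Cdkn1c* and -3.25 to 1.07 for *Mest*, and 3 to 6 genes in the widest 10%. The sign turned without labelled *Ptprz1*-/- library 3 for *H19*, *Igf2* and *Cdkn1c*, without labelled *Ptprz1*-/- library 2 for *Dlk1*, *Meg3* and *Plagl1* (0.049), and without *Ptprz1*+/+ library 3 for *Mest* and *Plagl1*. A pseudocount of 2, or a background of genes with at least 10 CPM, put 6 genes in the widest 10%. Library numbers were not treated as pairs, because no label ties them and deviations from the genotype means correlated at 0.46, -0.06 and 0.53 for numbers 1, 2 and 3. Libraries 1 and 3 were most like their own number and libraries 2 were not, which leaves shared handling untested. A replicate block gave 0 called genes and 690 at an unadjusted p under 0.05, against 366 without it, and 3 genes in the widest 10%. The block moved the log2 fold change of *H19* to 0.23, *Cdkn1c* to 0.53, *Mest* to -1.05, *Dlk1* to 0.11 and *Meg3* to -0.44, and the spread of *H19* to 1.01, *Igf2* to 0.791, *Mest* to 0.618, *Plagl1* to 0.213 and *Igf2r* to 0.177. Depth limits *Mest*, *Dlk1* and *Igf2* most, with as few as 16, 44 and 52 reads in a library.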
